A study of Mus musculus with 8 samples.

Results

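The genes described here are 40 mouse genes of DNA damage signalling and DNA repair, chosen by name and grouped into 9 repair routes. A gene was measured if at least 1 array probe annotated with its current or former symbol had a detection p under 0.01 on at least 1 of 8 Illumina arrays of cultured spleen cells. Of the 40 genes, 36 had a probe (59 probes) and 31 were measured (38 probes), out of 10273 measured probes among the 24613 probes analysed in all. Chek1, Brca2, Xrcc5, Lig4 and Fanca had probes but were detected on 0 arrays. Atr, Mdc1, Ogg1 and Apex1 were not analysed here because no probe was annotated with their symbols. At the limit of detection, the lowest detection p was 0.00973 for Chek2 and 0.00852 for Brca1, just inside, and 0.0195 for Brca2 and 0.0426 for Lig4, just outside. A gene detected only on the arrays where it was high had to differ between arrays. For that reason the 21 members detected on all 8 arrays are kept apart in places below.

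The study compared spleen cells of C57BL/6 mice of 3 p53 genotypes. Δ122p53 mice, labelled p53 delta 122, make a p53 protein without its N-terminal transactivation domain, p53-null mice make no p53, and WT mice carry the normal gene. Each suspension pooled the spleens of 4 mice aged 5 to 6 weeks and was then cultured. The groups were Δ122p53 amsacrine, Δ122p53 control, p53-null amsacrine, p53-null irradiated, p53-null control, WT amsacrine and WT control, with 2 arrays for the p53-null control and 1 array for every other group. Amsacrine, which traps topoisomerase II on DNA and leaves double-strand breaks, was given at 1 µg per mL for 5 hours against a carrier of 30% ethanol. Irradiated cells received 4 Gy of gamma rays against untreated cells, and the labels used here do not state how long after irradiation the cells were harvested. Nor do they state which p53-null control array had the carrier and which was untreated. Both radiation and amsacrine were therefore set against the mean of the same 2 p53-null control arrays. Nothing says that those arrays came from separate pools, and their spread may then be technical. It may also hold the difference between carrier and untreated cells. Their spread is the only residual spread behind the p-values of the treatment responses and is part of that behind the genotype differences. The gene that distinguishes the genotypes, Trp53, had no probe in the annotation used, so its level did not check the genotype labels.

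Cells read DNA damage through the kinases ATM and ATR, which phosphorylate histone H2AX at breaks, activate the checkpoint kinases and stabilise p53. Separate routes then mend separate lesions: recombination and end joining act on double-strand breaks, and excision routes cut out damaged bases or bulky adducts. Mismatch repair corrects copying errors, crosslinks are unhooked through the Fanconi pathway, and MGMT strips alkyl groups from guanine directly. Recombination and crosslink repair work mainly in cells that are copying or have copied their DNA, and several of their genes are transcribed with the replication genes. In lymphocytes, break repair also serves antigen receptor rearrangement and class switching.

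The promoters of Mgmt, Blm and Neil1 are shown because these genes had the largest genotype and drug differences among the members. Each runs from 250 bases before to 50 bases after a RefSeq start, 5′ to 3′ on the gene's strand, in mouse build GRCm38.p6. Capitals mark motif matches. The Mgmt window lies at chr7:136894336-136894635 on the plus strand, the Blm window at chr7:80534949-80535248 on the minus strand and the Neil1 window at chr9:57148256-57148555 on the minus strand.
Mgmt: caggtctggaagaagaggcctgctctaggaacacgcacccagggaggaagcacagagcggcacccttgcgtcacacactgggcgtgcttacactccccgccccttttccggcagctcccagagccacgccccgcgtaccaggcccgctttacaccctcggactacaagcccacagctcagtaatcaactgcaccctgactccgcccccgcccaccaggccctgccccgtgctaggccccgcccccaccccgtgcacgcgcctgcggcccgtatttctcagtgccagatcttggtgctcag
Blm: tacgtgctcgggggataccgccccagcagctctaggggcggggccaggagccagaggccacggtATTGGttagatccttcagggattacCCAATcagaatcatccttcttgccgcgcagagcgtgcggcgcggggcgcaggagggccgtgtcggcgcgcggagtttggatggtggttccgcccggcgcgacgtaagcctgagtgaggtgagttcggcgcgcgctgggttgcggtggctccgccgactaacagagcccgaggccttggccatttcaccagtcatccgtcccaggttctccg
Neil1: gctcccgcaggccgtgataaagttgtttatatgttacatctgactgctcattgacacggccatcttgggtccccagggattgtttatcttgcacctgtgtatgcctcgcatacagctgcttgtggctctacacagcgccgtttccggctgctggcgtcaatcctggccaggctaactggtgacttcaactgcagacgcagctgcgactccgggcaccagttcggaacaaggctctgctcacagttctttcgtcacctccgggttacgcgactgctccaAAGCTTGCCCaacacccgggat
Motifs of 4 kinds were searched on both strands: E2F sites (TTTCCCGC, TTTGGCGC, TTTCGCGC or TTTGCCGC), the cell cycle element CHR (TTTGAA), the CCAAT box (CCAAT) and the p53 consensus decamer. The Mgmt window held none of these letters. The Blm window held 2 CCAAT boxes, from −186 to −182 and from −161 to −157 relative to the start, and the Neil1 window held 1 p53 decamer, from 29 to 38. The Mgmt window held 20 CpG and 66.3% G or C, and those of Blm and Neil1 held 32 and 17 CpG. RefSeq gives Mgmt a second start downstream, whose window (chr7:136912848-136913147, plus strand) held 3 CpG and 52% G or C. Over 32851 mouse promoters of this length the median was 7 CpG and 52.7% G or C. Promoters were at hand for 23 of the 31 measured members and not for H2afx, Rad50, Nbn, Wrn, Prkdc, Xpc, Ercc3 and Fancd2. An E2F match stood in 5 of the 23 (2.26% of all promoters), a CHR match in 1 (17.9%), a CCAAT box in 12 (37.4%) and a p53 decamer in 2 (8.36%).

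The arrays were alike in brightness and detection, with a median intensity of 69.7 to 81.5 and 7710 to 8633 probes detected per array. B cell and T cell markers were detected in every group. Levels below are normalized log2 intensities, a difference of 1 is 2-fold, and errors are standard errors (SE) from limma. The 2 p53-null control arrays give the spread: control 2 minus control 1 had a median absolute difference of 0.27 over the members, against 0.30 over all 7456 genes. The member furthest apart was Mgmt at 0.77, and 0 of 31 members differed 2-fold, against 6.69% of all genes. The pair differed in neutrophil markers: the 9 genes measured had a summed linear intensity of 14500 on control 1 and 36300 on control 2. Both Δ122p53 arrays also stood apart in cell makeup. Erythroid markers (8 of 10 measured) had a summed linear intensity of 44400 and 50100 on the Δ122p53 amsacrine and control arrays, against 893 to 2090 on the 4 p53-null arrays and 5030 and 3470 on the WT amsacrine and control arrays. Among the erythroid genes, Hemgn, Trim10, Rhag and Epor were not detected on the WT control. Mitotic genes (7 of 12 measured) summed to 5990 and 3860 on the Δ122p53 arrays, against 498 to 1100 on the p53-null arrays and 355 and 1170 on the WT amsacrine and control arrays. T cell and macrophage markers were lower in Δ122p53 cells. Of T cell genes, 7 of 9 passed lower against WT (median difference −1.59) and 6 of 9 against p53-null cells (−1.40). Of macrophage genes, 5 of 8 passed lower against WT (−2.57) and 6 of 8 against p53-null cells (−2.29, all limma). Of 8 B cell genes 0 passed against WT (−0.37) or p53-null cells (−0.46). Of 9 neutrophil genes 1 passed lower against WT (−0.66) and 0 passed against p53-null cells (−0.36). In these bulk samples fewer cells of a type and less RNA per cell cannot be told apart.

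**Figure D1:**
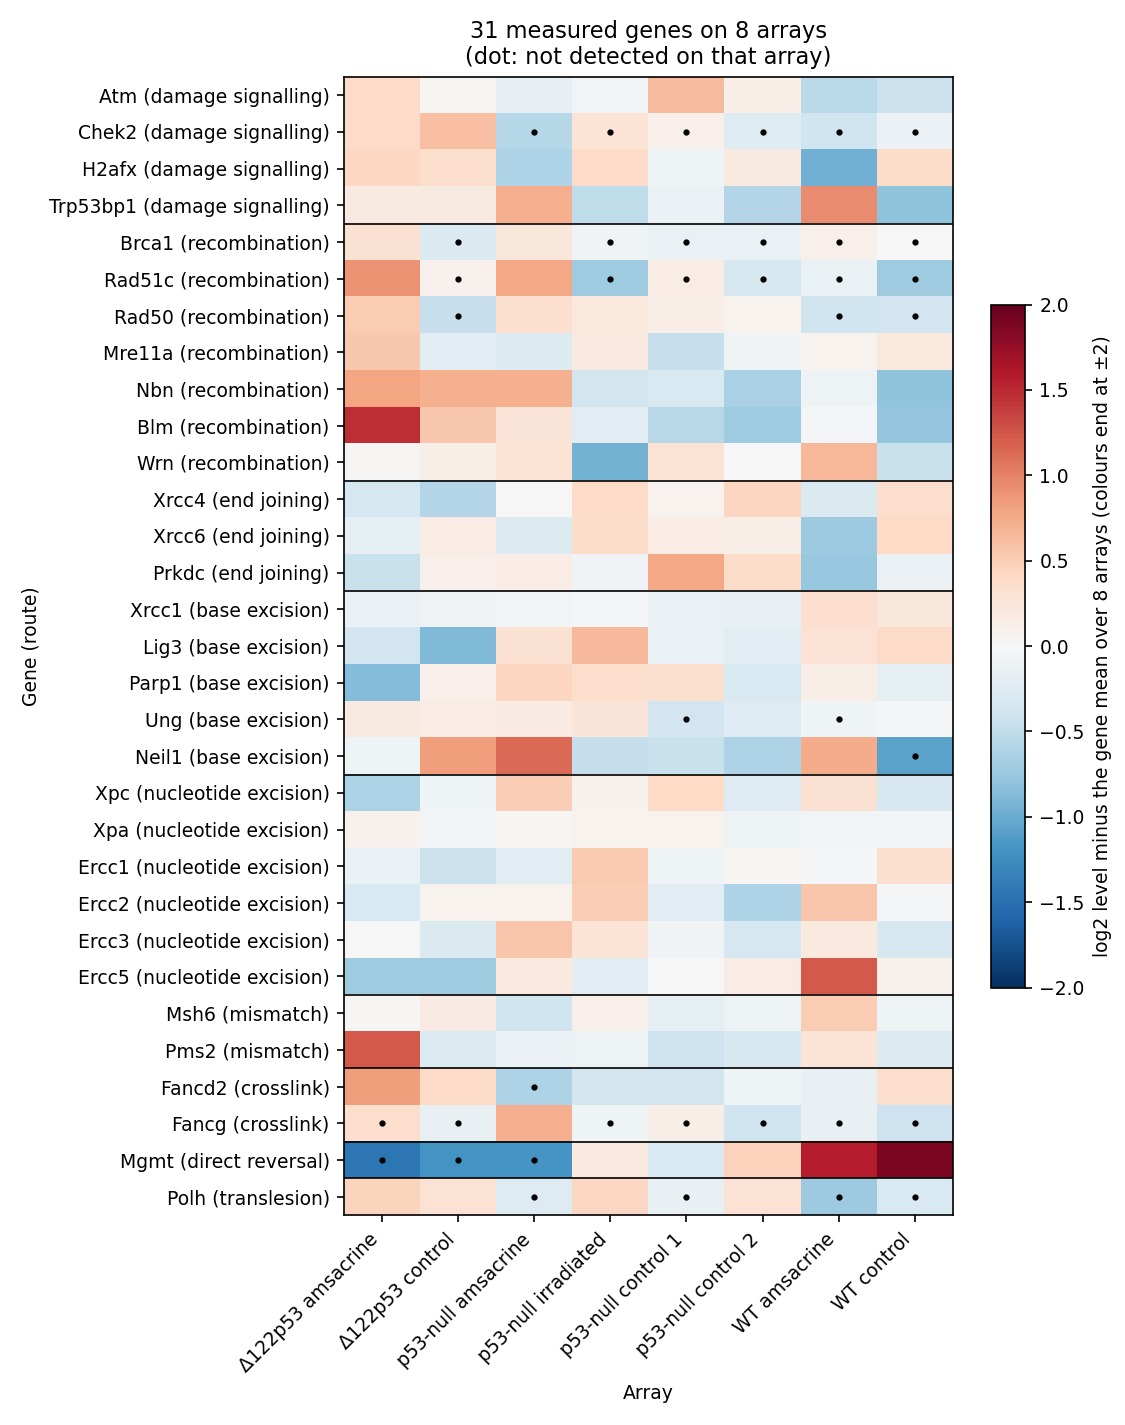
Each row is 1 of the 31 measured repair genes, ordered by repair route, and each column is 1 array; colour gives the log2 level minus the gene's own mean over the 8 arrays. Mgmt is lowest on both Δ122p53 arrays and the p53-null amsacrine array and highest on both WT arrays.

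Direct reversal held the largest genotype difference. Mgmt, whose product removes the alkyl group from O6-alkylguanine and is used up in doing so, had log2 levels of 5.30 and 5.56 on the Δ122p53 amsacrine and control arrays. Its levels were 5.57 on the p53-null amsacrine array, 6.95 on the irradiated array and 6.45 and 7.21 on the p53-null controls, and 8.32 and 8.64 on the WT amsacrine and control arrays. All 6 arrays without normal p53 lay below both WT arrays, and on both Δ122p53 arrays and the p53-null amsacrine array Mgmt was not detected. These values rest on 1 probe: a second Mgmt probe was detected on 0 arrays, at 4.81 and 4.75 on the WT amsacrine and control arrays. Mgmt was at least 6.05-fold lower in Δ122p53 than in WT cells, and the fitted difference was −3.05 ± 0.38 (limma, additive model of genotype and amsacrine on 7 arrays, adjusted p = 0.00696). It held within each condition, at −3.08 on the control arrays (adjusted p = 0.0411, limma) and −3.01 on the amsacrine arrays (adjusted p = 0.0319). The call rests on both WT arrays: without the WT amsacrine array the adjusted p was 0.0848, and without the WT control array it was 0.0514. Between p53-null and WT cells the difference was −2.18 ± 0.35, which did not pass (unadjusted p = 0.000456, adjusted p = 0.373, limma). Between Δ122p53 and p53-null cells it was −0.87 ± 0.35 (adjusted p = 0.213). The erythroid, mitotic, T cell and macrophage markers given above moved with this difference and with those of Blm, Ercc5 and Lig3 below, and their part in these was not tested.

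**Figure D2:**
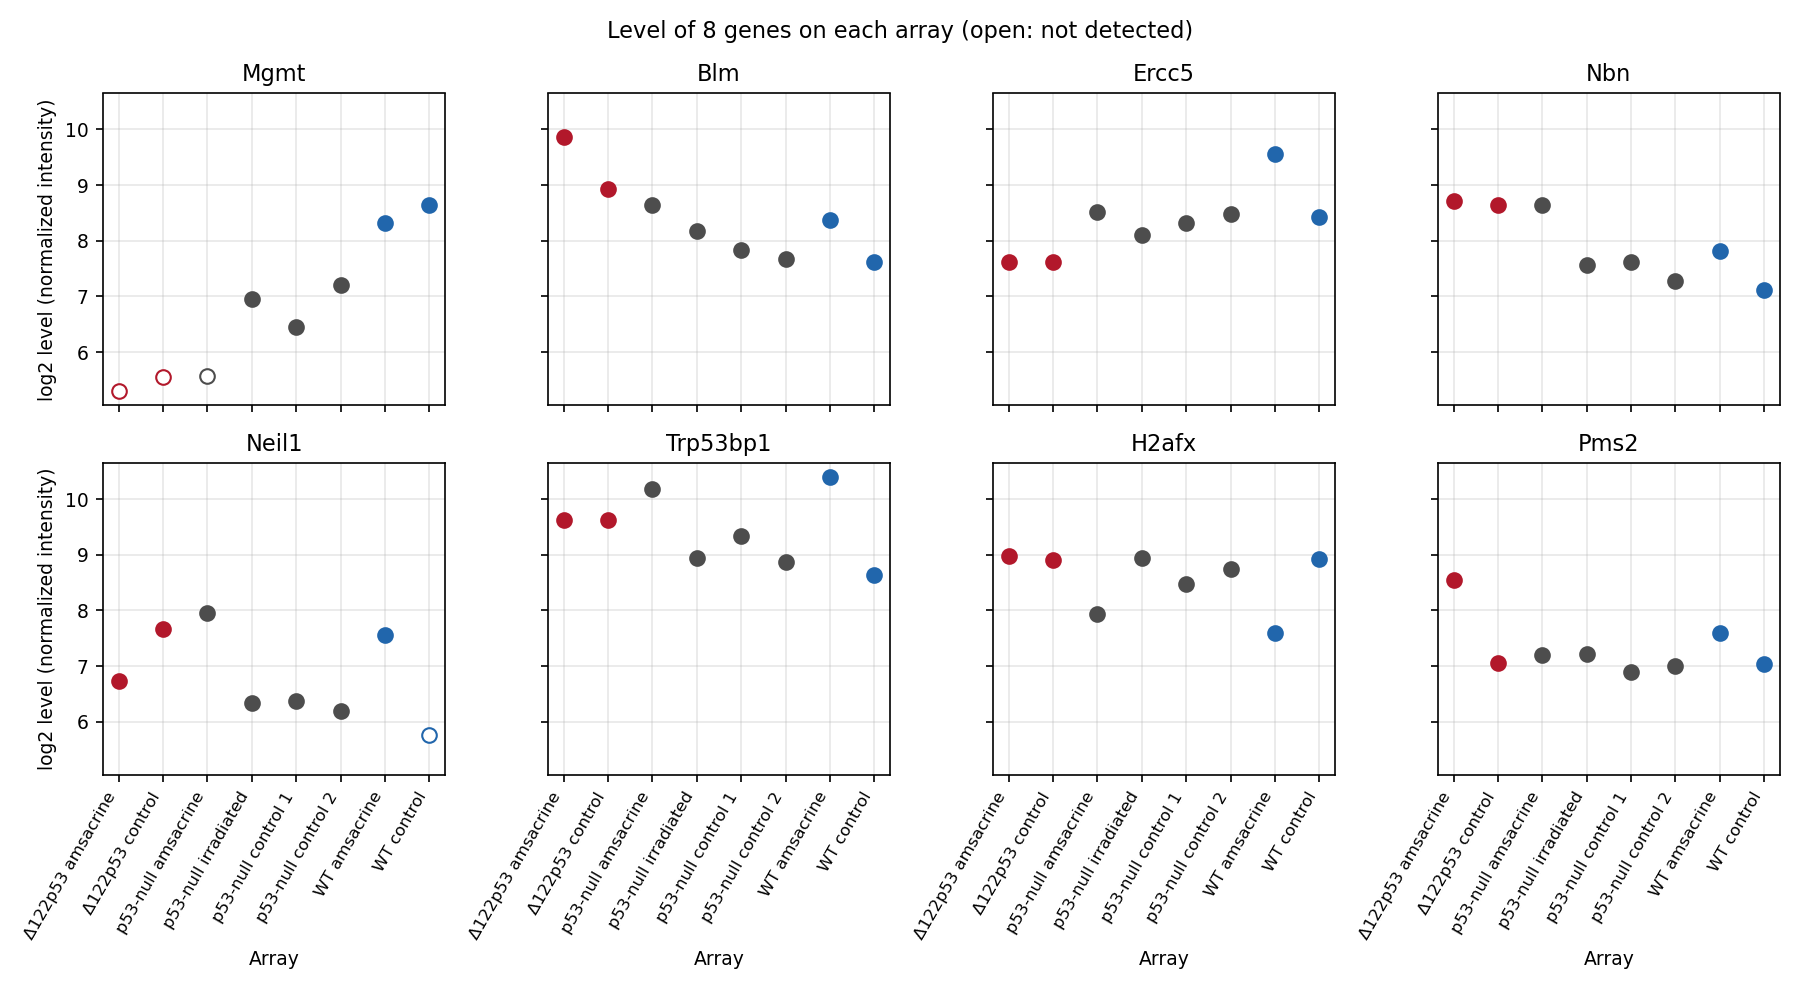
Log2 levels of 8 repair genes on each of the 8 arrays, with 1 point per array, coloured by genotype and open where the gene was not detected. Mgmt lies at 5.30 and 5.56 on the Δ122p53 arrays and at 8.32 and 8.64 on the WT arrays, while Blm is highest on the Δ122p53 arrays, at 9.87 and 8.93.

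Among recombination genes, Blm was higher in Δ122p53 cells than in both other genotypes. Blm encodes the Bloom syndrome helicase, which unwinds recombination intermediates. Its log2 levels were 9.87 and 8.93 on the Δ122p53 amsacrine and control arrays, 8.64, 8.17, 7.84 and 7.68 on the p53-null amsacrine, irradiated and 2 control arrays, and 8.37 and 7.61 on the WT amsacrine and control arrays. Both Δ122p53 arrays lay above all 6 others. A second Blm probe was detected on 0 arrays. Blm rose by 1.41 ± 0.24 against WT (adjusted p = 0.0151, limma) and by 1.20 ± 0.22 against p53-null cells (adjusted p = 0.0226, limma). The difference kept its size within conditions, at 1.32 on control and 1.5 on amsacrine arrays against WT, where the adjusted p was 0.122 and 0.0971. Against WT, leaving out the WT amsacrine array gave an adjusted p of 0.12 and leaving out the WT control array 0.0893. Against p53-null cells, leaving out any 1 of the 7 arrays gave an adjusted p of 0.052 to 0.151, the highest without the p53-null amsacrine array.

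Of the other 6 recombination genes 0 passed. Nbn, the NBS1 subunit of the MRN complex that holds and trims broken ends, had levels of 8.71 and 8.64 on the Δ122p53 amsacrine and control arrays, against 7.82 and 7.12 on the matching WT arrays. On the p53-null arrays Nbn was at 8.64 with amsacrine, 7.56 after irradiation and 7.62 and 7.27 in the controls. The Δ122p53 minus WT difference of Nbn was 1.20 ± 0.33 (adjusted p = 0.056, limma), and without the Δ122p53 amsacrine array the adjusted p was 0.0334. Rad51c, a recombination factor, was at 6.28 and 5.46 on the Δ122p53 amsacrine and control arrays, against 5.24 and 4.66 on the WT arrays. It was detected on the amsacrine arrays of Δ122p53 and p53-null cells only, at 6.28 and 6.15. Having been detected on 0 WT arrays, it had to differ from WT, and its fitted differences are given without a test, at 0.92 ± 0.27 against WT and 0.17 ± 0.25 against p53-null cells. Rad50, another MRN subunit, differed from WT by 0.40 ± 0.30. Mre11a, the MRN nuclease, differed by 0.01 ± 0.31 from WT, Wrn, the Werner helicase, by −0.04 ± 0.34, and Brca1, which promotes end resection, by −0.04 ± 0.25. Of the 7 recombination genes, 5 were higher and 2 lower against WT (median 0.40, against −0.15 over all genes), and 1 of the 7 passed. Rad50 and Brca1, like Rad51c, were detected on 0 WT arrays, and the median of 0.40 is the value of Rad50. The count and median are therefore not read as a difference of the route. On the control arrays alone Mre11a, Brca1 and Rad50 lay below WT, by −0.44, −0.29 and −0.09.

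Markers of dividing cells moved with Blm. Of the mitotic genes, all 7 measured passed higher in Δ122p53 than in WT cells (median difference 2.76, limma). Against p53-null cells 6 of 7 passed higher (median 2.31). The median mitotic level was 9.60 and 9.01 on the Δ122p53 amsacrine and control arrays, 5.55, 7.36, 7.03 and 7.33 on the p53-null amsacrine, irradiated and control arrays, and 5.81 and 7.18 on the WT amsacrine and control arrays. Of 15 measured replication genes, 4 passed against WT and 3 against p53-null cells. Across treatments, Blm and the mitotic genes were both higher with amsacrine in Δ122p53 cells and parted in p53-null and WT cells. With amsacrine, Blm was higher than its control by 0.95, 0.87 and 0.77 in Δ122p53, p53-null and WT cells. Gene by gene, the 7 mitotic genes had a median difference of 0.65, −1.40 and −1.61 over the same pairs. The part of dividing cells in the Blm genotype difference was not tested.

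**Figure D3:**
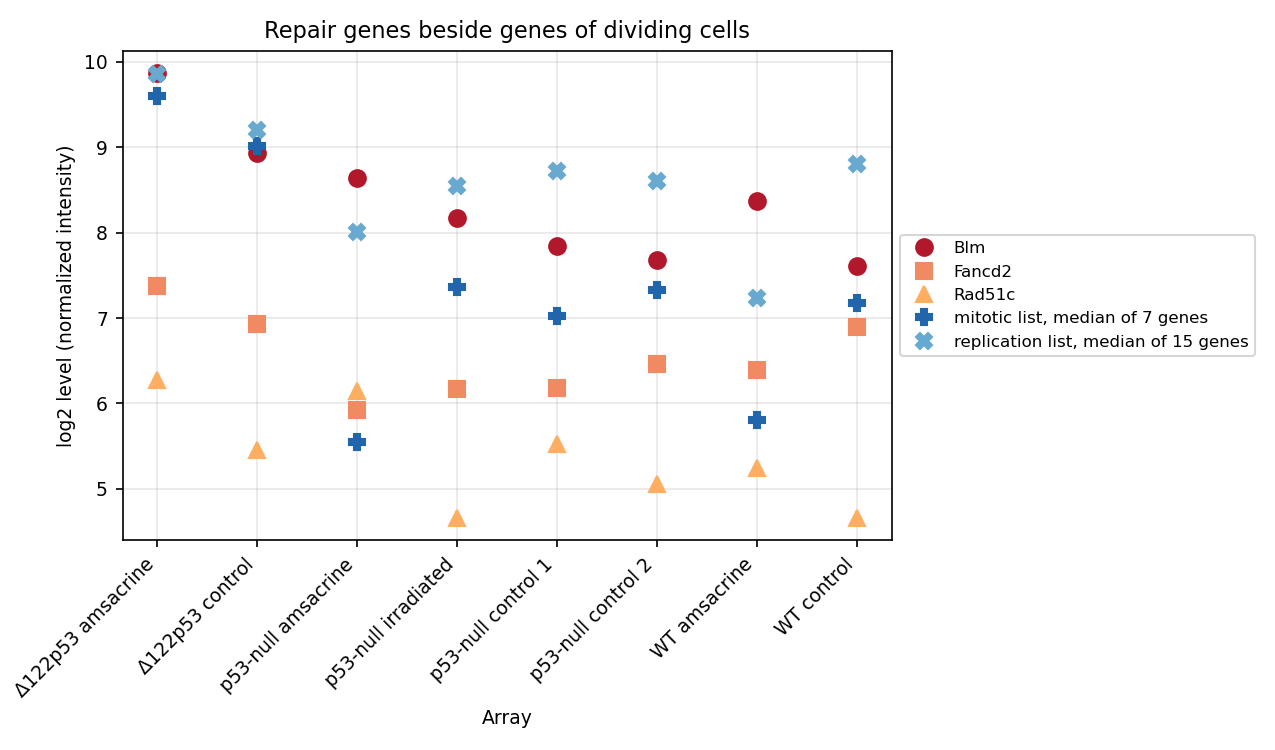
Log2 levels of Blm, Fancd2 and Rad51c on each array, beside the median levels of 7 mitotic and 15 replication genes. Blm and the mitotic median are both highest on the Δ122p53 arrays, while on the WT amsacrine array Blm is at 8.37 and the mitotic median at 5.81.

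Fancd2 and Fancg belong to crosslink repair. Fancd2, the Fanconi protein that is ubiquitinated at stalled forks, had levels of 7.38 and 6.93 on the Δ122p53 amsacrine and control arrays and 6.39 and 6.90 on the WT amsacrine and control arrays. In p53-null cells it was at 5.92 with amsacrine, where it was not detected, at 6.17 after irradiation and at 6.18 and 6.46 in the controls. All 4 p53-null arrays lay below both Δ122p53 arrays, while the WT control was at nearly the Δ122p53 control level. The Δ122p53 minus p53-null difference was 1.00 ± 0.29 (adjusted p = 0.0918, limma) and the Δ122p53 minus WT difference 0.51 ± 0.32 (adjusted p = 0.302). Fancg, a core complex subunit, was detected on the p53-null amsacrine array alone, at 6.08.

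Among nucleotide excision genes, Ercc5 passed lower in Δ122p53 than in WT cells. Ercc5 encodes XPG, the nuclease that cuts 3′ of a bulky lesion. The brighter Ercc5 probe read 7.61 on both Δ122p53 arrays, 8.52, 8.11, 8.32 and 8.48 on the p53-null amsacrine, irradiated and 2 control arrays, and 9.55 and 8.42 on the WT amsacrine and control arrays. Both Δ122p53 arrays lay below all 6 others. Ercc5 fell by 1.37 ± 0.33 against WT (adjusted p = 0.0394, limma), and the difference from p53-null cells was −0.90 ± 0.31 (adjusted p = 0.142). On control arrays alone the difference from WT was −0.81 (adjusted p = 0.261, limma), and on amsacrine arrays alone it was −1.94 (adjusted p = 0.054). This was the least stable call: with any 1 of the 7 arrays left out the adjusted p was 0.0511 to 0.22, highest without the WT amsacrine array, and the difference then ran from −1.90 to −0.85. The second Ercc5 probe read 4.96 and 5.36 on the Δ122p53 amsacrine and control arrays and 6.19 and 5.40 on the WT arrays, a difference of −0.63 that did not pass (adjusted p = 0.222). Of the 6 nucleotide excision genes, 5 were lower and 1 higher against WT in the additive fit (median −0.36, against −0.15 over all genes). The damage sensor Xpc was at −0.35 ± 0.37, the helicase subunit Ercc2 (XPD) at −0.37 ± 0.32, Ercc1, partner of the XPF nuclease, at −0.42 ± 0.26, the other helicase Ercc3 (XPB) at −0.08 ± 0.26 and the scaffold Xpa at 0.07 ± 0.24. The direction was not shared by the conditions: on control arrays alone Xpc was at 0.23, Ercc2 at 0.10, Ercc3 at 0.03 and Xpa at 0.01, while on amsacrine arrays Xpc was at −0.94 and Ercc2 at −0.85.

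Of the 4 damage signalling genes 0 passed between Δ122p53 and WT cells. All 4 fitted differences were above 0 (median 0.68), where 3101 of all 7456 genes were (median −0.15). On control and on amsacrine arrays alone, Atm was above WT by 0.45 and 0.92 and Chek2 by 0.72 and 0.80. H2afx and Trp53bp1 were not above WT in both conditions. Chek2, a checkpoint kinase activated by ATM, was detected on the Δ122p53 arrays only, at 5.83 and 6.04 with amsacrine and in the control. It was measured only through those arrays and had to differ, so its fitted differences are given without a test. They were 0.76 ± 0.26 against WT and 0.80 ± 0.24 against p53-null cells. The count of 4 includes Chek2 and is therefore not read as a difference of the route. Atm, the kinase that responds first to double-strand breaks, had levels of 7.72 and 7.37 on the Δ122p53 amsacrine and control arrays. It was at 7.18, 7.29, 7.97 and 7.47 on the p53-null amsacrine, irradiated and 2 control arrays and at 6.80 and 6.91 on the WT amsacrine and control arrays. All 6 arrays without normal p53 lay above both WT arrays, with a difference of 0.69 ± 0.32 for Δ122p53 and 0.66 ± 0.30 for p53-null against WT (adjusted p = 0.187 and 0.426, limma). H2afx, the histone variant that marks breaks when phosphorylated, differed by 0.67 ± 0.36 in the fit, by −0.02 on control arrays and by 1.36 on amsacrine arrays. Trp53bp1, the chromatin reader 53BP1, differed by 0.11 ± 0.43 in the fit, by 1 on control arrays and by −0.77 on amsacrine arrays.

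End joining, base excision, mismatch and translesion genes gave 0 calls between genotypes. In base excision, Lig3, the ligase that seals the final nick with XRCC1, read 7.09 and 6.59 on the Δ122p53 amsacrine and control arrays, 7.78, 8.12, 7.35 and 7.26 on the p53-null amsacrine, irradiated and control arrays, and 7.77 and 7.86 on the WT arrays. Both Δ122p53 arrays were the lowest, and the difference from WT was −0.98 ± 0.26 (adjusted p = 0.0524, limma). Its partner Xrcc1, the route's scaffold, differed by −0.38 ± 0.23 and the glycosylase Ung by 0.23 ± 0.26. Prkdc, the catalytic subunit of the end-joining kinase DNA-PK, was at 7.34 and 7.89 on the Δ122p53 amsacrine and control arrays. It was at 7.94, 7.71, 8.56 and 8.15 on the p53-null amsacrine, irradiated and control arrays and at 7.02 and 7.67 on the WT amsacrine and control arrays. The p53-null minus WT difference of Prkdc was 0.79 ± 0.24 (adjusted p = 0.375, limma) and that of Rad51c was 0.75 ± 0.25. Of the other end-joining genes, the ligase partner Xrcc4 differed from WT by −0.50 ± 0.30 in Δ122p53 cells and Xrcc6 (Ku70) by 0.14 ± 0.28. Polh, the polymerase that copies past ultraviolet lesions, was detected on 4 arrays and on 0 WT arrays, and differed by 0.88 ± 0.28 between Δ122p53 and WT, given without a test. Msh6, a mismatch recognition subunit, differed by −0.12 ± 0.29.

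**Figure D4:**
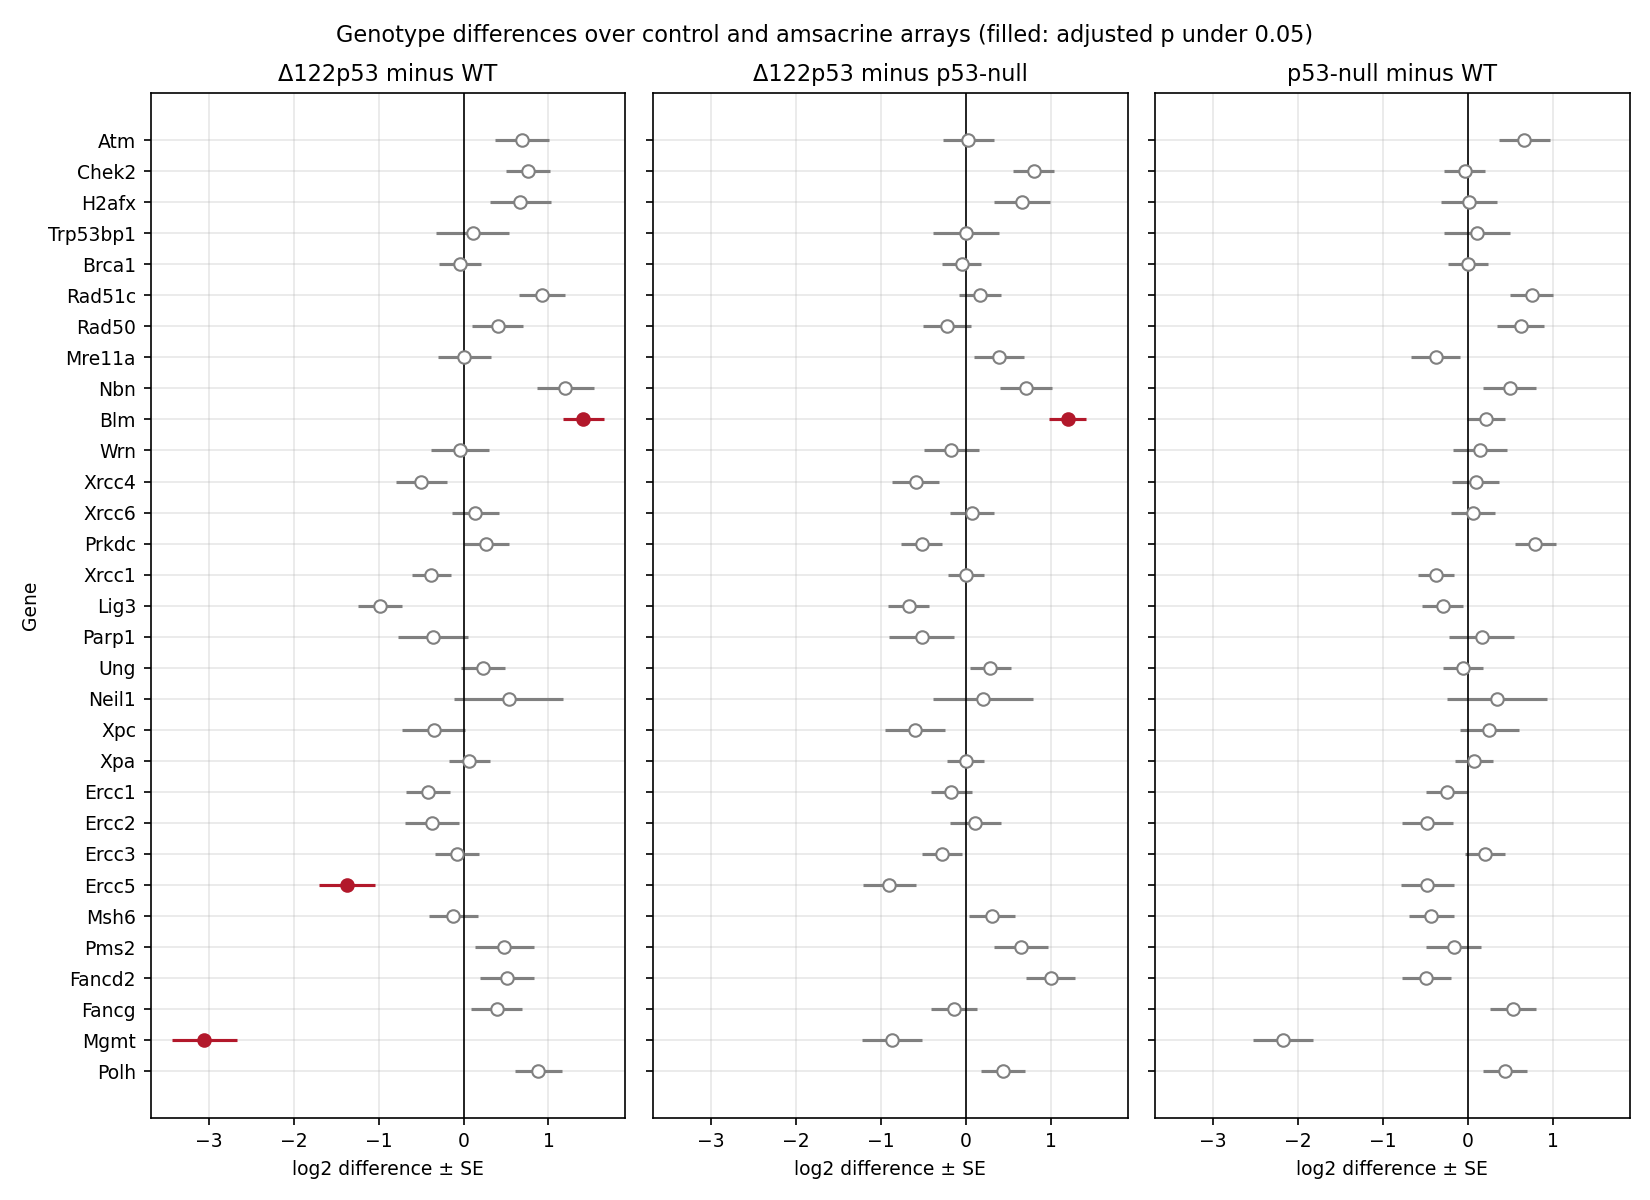
Fitted log2 genotype differences with SE for the 31 genes, ordered by route, for Δ122p53 minus WT, Δ122p53 minus p53-null and p53-null minus WT; filled points passed an adjusted p of 0.05. Filled points are Blm, Ercc5 and Mgmt against WT and Blm against p53-null cells.

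Counted over all routes, genotype calls among repair genes were no more frequent than among genes at large. Between Δ122p53 and WT, 3 of 31 members passed (9.68%), against 13.8% of all 7456 genes. By direction, 1 was higher (6.52% of all genes) and 2 were lower (7.24%). At least 2-fold differences were 2 higher and 2 lower, against 9.55% and 11.1% of all genes. Between Δ122p53 and p53-null cells 1 member passed (3.23%), against 7.70% of all genes, and 1 was 2-fold higher (6.63% of all genes) and 0 were 2-fold lower (6.49%). Between p53-null and WT cells 0 members passed, and 0 of all 7456 genes (0%) did. By the same limma fit, 3 members and 726 of all genes had an unadjusted p under 0.05. Among the 21 members detected on all 8 arrays, 10 were higher and 11 lower in Δ122p53 than in WT (median −0.04).

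Amsacrine was then set against the control within each genotype. Neil1 had the largest difference in p53-null and WT cells, higher with the drug, and Pms2 the largest in Δ122p53 cells, but 0 members passed in any of the 3 genotypes. The share of all genes that passed was 0% in Δ122p53, 0.107% in p53-null (0.0671% higher and 0.0402% lower) and 0% in WT cells, in a model with 1 residual degree of freedom. At an unadjusted p under 0.05 limma gave 2 of 31 members in Δ122p53, 5 in p53-null and 6 in WT cells, and 472, 1226 and 1397 of all 7456 genes. In Δ122p53 cells 1 member was 2-fold higher and 0 lower (3.38% and 3.97% of all genes). In p53-null cells 3 were higher and 1 lower (6.09% and 8.41%), and in WT cells 4 were higher and 2 lower (9.75% and 12.2%). The labels give the carrier for the amsacrine experiment as a whole and not for each control array. Cell markers moved with the drug too: the 8 B cell genes had a median difference of −1.48, −1.44 and −1.72 in Δ122p53, p53-null and WT cells, and 4 of 8 passed lower over the 3 genotypes (limma). The 8 macrophage genes had a median of 0.18 in Δ122p53, −1.28 in p53-null and −2.01 in WT cells. The part of these cells in the responses below was not tested.

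Neil1, a base excision glycosylase that removes oxidised pyrimidines, split by genotype. Its levels were 6.73 with amsacrine and 7.66 in the control in Δ122p53 cells, 7.96 with amsacrine and 6.37 and 6.20 in the controls in p53-null cells, and 7.56 with amsacrine and 5.76 in the control in WT cells, where it was not detected in the control. The irradiated p53-null array was at 6.34, beside the controls. Neil1 was thus higher with amsacrine than in the controls in p53-null and WT cells and lower in Δ122p53 cells. The differences were −0.93 ± 0.40 in Δ122p53 (adjusted p = 0.82), 1.68 ± 0.35 in p53-null (adjusted p = 0.134) and 1.81 ± 0.40 in WT cells (adjusted p = 0.115, limma), the last being at least 3.37-fold. The difference between responses was −2.73 ± 0.56 for Δ122p53 minus WT (unadjusted p = 0.00284, adjusted p = 0.356, limma) and −2.60 ± 0.53 for Δ122p53 minus p53-null (unadjusted p = 0.00261, adjusted p = 0.472). Neither passed over all probes.

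Trp53bp1 followed the same order. Its product 53BP1 binds chromatin at breaks and shields ends from resection. Its levels were 9.63 on both Δ122p53 arrays, 10.18 with amsacrine and 9.34 and 8.87 in the controls in p53-null cells, and 10.39 with amsacrine and 8.64 in the control in WT cells. The response was −0.01 ± 0.44 in Δ122p53, 1.08 ± 0.38 in p53-null (adjusted p = 0.241) and 1.76 ± 0.44 in WT cells (adjusted p = 0.13, limma). A second Trp53bp1 probe read 7.58 with amsacrine and 8.54 in the control in Δ122p53, 8.49 with amsacrine and 7.42 and 6.69 in the controls in p53-null, and 8.35 and 6.54 in WT cells. Both probes were higher with the drug in p53-null and WT cells and not in Δ122p53 cells. The Δ122p53 minus WT difference of the responses was −1.77 ± 0.62 (unadjusted p = 0.0286, adjusted p = 0.422).

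Leaving out both Δ122p53 arrays, an alternative listed with the design, raised the number of amsacrine calls over the other genotypes to 4. Neil1 was higher with amsacrine by 1.73 ± 0.21 (adjusted p = 0.00925), Trp53bp1 by 1.37 ± 0.27 (0.0238), Nbn by 0.98 ± 0.24 (0.0435) and Blm by 0.83 ± 0.21 (0.0469, all limma). In that fit 15.5% of all genes passed, 6.49% higher and 8.97% lower. Over all 3 genotypes 0 of 31 members passed, against 1.58% of all genes (0.241% higher and 1.34% lower), and 0 were at least 2-fold higher or lower (2.66% and 5.36% of all genes). By limma 9 members had an unadjusted p under 0.05 there, against 1818 of all genes. The nearest was Blm, at 0.86 ± 0.18 (adjusted p = 0.0706). All 7 recombination genes were higher with amsacrine in that fit (median 0.37), where 3985 of all 7456 genes were higher (median 0.04). Brca1 and Rad51c were detected on amsacrine arrays only and so had to differ, and the count of 7 is not read as a result of the route. The 3 end-joining genes were lower (median −0.53).

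The other responses to amsacrine differed between genotypes in which genes led. H2afx was at 8.97 and 8.91 on the Δ122p53 amsacrine and control arrays, 7.94 against 8.47 and 8.74 on the p53-null arrays and 7.60 against 8.93 on the WT arrays. The WT response of H2afx was −1.33 ± 0.41 (adjusted p = 0.181, limma), the largest lower value in WT cells. Over the same WT arrays the 7 mitotic genes had a median difference of −1.61, and their part in the H2afx value was not tested. Nbn was at 8.64 with amsacrine and 7.62 and 7.27 in the controls in p53-null cells, a difference of 1.19 ± 0.36 (adjusted p = 0.195). Mgmt was not detected on the p53-null amsacrine array and lay at least 1.84-fold below the controls (fitted −1.25 ± 0.43, adjusted p = 0.236). In WT cells Ercc5 was at 1.13 ± 0.40 (adjusted p = 0.214), Wrn at 1.12 ± 0.41 (0.221) and Xrcc6 at −1.12 ± 0.39 (0.213, limma). Wrn, a helicase and exonuclease, read 8.40 and 8.49 on the Δ122p53 amsacrine and control arrays, 8.65 against 8.66 and 8.38 on the p53-null arrays, and 9.04 against 7.92 on the WT arrays. Xrcc6, which loads DNA-PK on broken ends, read 7.56 and 7.91 on the Δ122p53 amsacrine and control arrays, 7.49 against 7.91 and 7.89 on the p53-null arrays, and 7.04 against 8.16 on the WT arrays.

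In Δ122p53 cells the leading gene was Pms2, the mismatch repair endonuclease subunit. It was at 8.55 with amsacrine and 7.05 in the control in Δ122p53, 7.20 against 6.90 and 7 in p53-null, and 7.60 against 7.04 in WT cells. The Δ122p53 amsacrine array was above all 7 others. The Δ122p53 response was 1.49 ± 0.39 (adjusted p = 0.611, limma), and it was 0.25 ± 0.34 in p53-null and 0.55 ± 0.39 in WT cells. Rad50, the MRN subunit that tethers ends, was at 6.38 with amsacrine and 5.41 in the control in Δ122p53, 6.20 against 6.01 and 5.95 in p53-null, and 5.48 against 5.50 in WT cells. In Δ122p53 cells Rad50 was at least 1.33-fold higher (fitted 0.97 ± 0.39, adjusted p = 0.8). Parp1, which binds nicks and starts single-strand break repair, read 9.56 with amsacrine and 10.53 in the control in Δ122p53, 10.85 against 10.74 and 10.12 in p53-null, and 10.56 against 10.25 in WT cells. The Δ122p53 response of Parp1 was −0.96 ± 0.47 (adjusted p = 0.881) on this probe and −0.35 on the second.

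**Figure D5:**
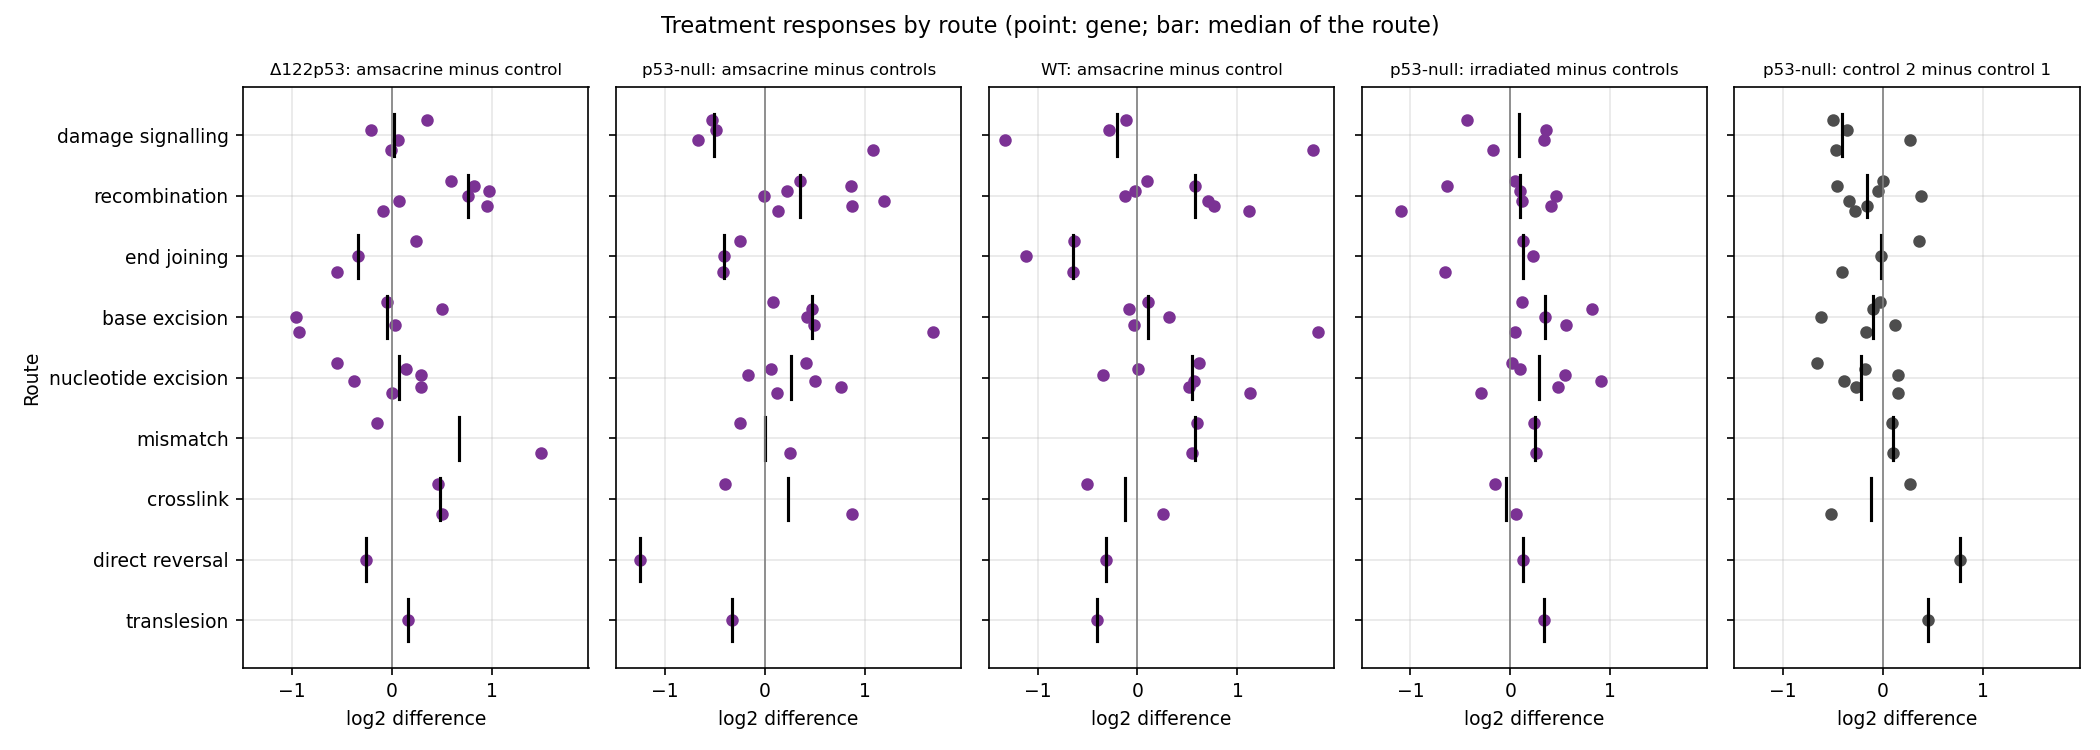
Log2 responses of each measured repair gene by route, for amsacrine in Δ122p53, p53-null and WT cells, for irradiation in p53-null cells and, beside them, between the 2 p53-null controls. Each point is 1 gene and each bar the median of a route. Neil1 is the highest amsacrine response in p53-null and WT cells, at 1.68 and 1.81, and Mgmt is the lowest in p53-null cells, at −1.25.

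Irradiation was measured in p53-null cells only. Repair genes differed little from the controls, with 24 of 31 higher, 7 lower and a median of 0.13 (0.04 over all genes). Of the members 0 passed, as did 0% of all genes, and by limma 2 members and 965 of all genes had an unadjusted p under 0.05. At least 2-fold differences were 0 higher and 1 lower, against 5.53% and 5.51% of all genes. The one 2-fold difference was Wrn, at 7.42 after irradiation and 8.66 and 8.38 in the controls (−1.09 ± 0.35, adjusted p = 0.303, limma). Ercc2 was at 8.37 against 7.65 and 7.26 (0.91 ± 0.37, adjusted p = 0.369), above all other p53-null arrays. A second Ercc2 probe, not detected on these arrays, differed by −0.06, and the Ercc2 probes shared a direction in 3 of the 12 comparisons made. Lig3 was at 8.12 against 7.35 and 7.26 (0.82 ± 0.34), and Prkdc at 7.71 against 8.56 and 8.15 (−0.65 ± 0.37). All 5 base excision genes were higher after irradiation (median 0.35), and 5 of 6 nucleotide excision genes were (median 0.29). Of all 7456 genes, 4001 were higher. Neil1 at 0.05 and Xpc at 0.02 lay near 0, and the 2 p53-null controls had a median absolute difference of 0.27 over the members. The counts are not read as a result of either route.

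The irradiated and amsacrine arrays of p53-null cells share their controls, so they were also set against each other. Irradiation minus amsacrine gave 0 of 31 members past the threshold (0% of all genes). By limma 7 members and 736 of all genes had an unadjusted p under 0.05. At least 2-fold differences were 2 higher and 5 lower (6.89% and 6.36% of all genes). Lower after irradiation than with amsacrine were Neil1 (−1.62 ± 0.40), Trp53bp1 (−1.24 ± 0.44), Wrn (−1.22 ± 0.41) and Nbn (−1.07 ± 0.42). Rad51c, also counted among the 5, was detected in p53-null cells on the amsacrine array only. It was at least 1.26-fold lower after irradiation (fitted −1.49 ± 0.43). Higher were H2afx (1.01 ± 0.41) and Mgmt, which was not detected with amsacrine and was at least 2.01-fold higher after irradiation (fitted 1.38 ± 0.50). The smallest adjusted p was 0.447, for Neil1. The agent and its carrier or handling differ together between these arrays and cannot be told apart.

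The differences between the amsacrine responses of the genotypes were also counted. For WT minus p53-null 0 members passed (0% of all genes), with 0 members at an unadjusted p under 0.05 by limma and 1 and 0 at least 2-fold higher and lower (3% and 3.57% of all genes). For Δ122p53 minus WT 0 passed (0%), with 2 at an unadjusted p under 0.05 and 1 and 6 at least 2-fold higher and lower (13.3% and 12.2%). For Δ122p53 minus p53-null 0 passed (0%), with 1 at an unadjusted p under 0.05 and 1 and 4 at least 2-fold higher and lower (9.66% and 8.21%). In the same order of comparisons, 105, 736 and 587 of all 7456 genes had an unadjusted p under 0.05 by limma.

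A wider list of 88 further repair genes, of which 51 were measured, was read the same way. Between Δ122p53 and WT, 5 of 51 passed higher and 5 lower, where 6.52% of all genes passed higher and 7.24% lower. Clspn, the claspin adaptor that lets ATR activate CHK1, rose by 2.32 ± 0.57 (adjusted p = 0.0415, limma). Its levels were 8.84 and 7.88 on the Δ122p53 amsacrine and control arrays, 6.01 to 6.85 on the p53-null arrays and 5.15 and 6.93 on the WT amsacrine and control arrays. Rad51ap1, a strand exchange factor, was detected on the Δ122p53 arrays only, at 7.80 and 6.41 with amsacrine and in the control. Measured only through those arrays, it had to differ, and it was at least 2.26-fold higher than in WT and at least 2.33-fold higher than in p53-null cells. Rev3l, the catalytic subunit of translesion polymerase zeta, was detected on 0 WT arrays and was at least 1.66-fold higher than in WT. Lower against WT were Aptx, which clears failed ligation products, by −1.66 ± 0.29, Ercc4, the XPF nuclease, by −1.37 ± 0.27, and Poll, an end-joining polymerase, by −1.20 ± 0.23 (adjusted p = 0.0169, 0.0238 and 0.0222, limma). Ercc4 was at 7.28 and 7.56 on the Δ122p53 amsacrine and control arrays, 7.99 to 8.14 on the p53-null arrays and 9.03 and 8.56 on the WT arrays. The erythroid, mitotic, T cell and macrophage markers given above also differed between Δ122p53 and WT cells. Their part in the differences of Clspn and the other wider-list genes was not tested. Without the WT amsacrine array or without the WT control array, 0 of the 51 passed against WT. Over the 3 genotypes 1 of the 51 passed with amsacrine, against 1.58% of all genes. It was Fanci, partner of FANCD2, which was detected on the 3 amsacrine arrays only and so had to differ. It was at least 1.73-fold higher with the drug. Its levels were 6.82, 6.91 and 6.25 with amsacrine in Δ122p53, p53-null and WT cells, against 5.68 in the Δ122p53 control, 5.19 and 4.86 in the p53-null controls and 5 in the WT control.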

How the data were processed

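The authors deposited a table of non-normalized probe intensity values with a detection p-value per probe and array, per the file headers, and a table of processed values made with lumi, per the submitters' processing notes, taken here as log2 values and used only as an alternative (correlation 0.966 with the values computed here). The sources used here do not name the scanner software. In R 4.3.3, limma 3.58.1 corrected the intensities with neqc (offset 16, background from the detection p), quantile normalized them and put them on the log2 scale. Probes detected on at least 1 array (10273) were fitted together, with Benjamini-Hochberg adjustment over all of them, 2-sided tests and an adjusted p threshold of 0.05. The brightest detected probe stood for each of 7456 genes. Probe symbols came from the platform annotation and were updated through the RefSeq gene table; H2afx matched through its former symbol.

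Treatment responses came from a model of 7 group means over 8 arrays. Its 1 residual degree of freedom is the p53-null control pair, so groups with 1 array borrow its spread (prior SD 0.304, with 5.02 prior degrees of freedom). Genotype differences and the amsacrine effect over 3 genotypes came from an additive model on 7 arrays without irradiation (3 residual degrees of freedom). Its spread also holds differences in response between genotypes. For a gene undetected throughout 1 side, a lower limit (at least N-fold) is given. It sets the mean of the detected side over that of the other, where each array counts with its lowest detected signal or the gene's own value if that is higher. A fitted difference that includes undetected arrays is not exact. Mean values come from 1 or 2 arrays, whose number limits the precision.

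The members, lists, routes and tests were chosen with earlier results of these data known. Members named with a value on every array had passed the threshold or were among the 4 largest differences of a treatment or genotype comparison, with at least 1 member per route; from the wider list the 3 largest each way among those past the threshold are named per genotype difference, and Fanci was named after its values were seen. Further members are named with differences only, or with levels where near the threshold, after their values were seen. The scripts' fits were tested on simulated data. Where probes map in the genome was not examined, and promoter sequences are RefSeq's.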

Additional observations from a re-analysis of the deposited data

How the results depend on the processing

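Alternatives were another background correction or none, cyclic loess, the authors' processed table, other detection filters, 1 probe per gene in the fit, and leaving out each array. The count of members past the threshold stayed within 1.5 times the reported count in 103 of the 119 results computed. Most of these had a reported count of 0, and 0 again counted as unchanged. The 103 therefore says little about how stable the Δ122p53 calls are. No difference that put a gene among the named members turned its direction. Over the 3 genotypes amsacrine gave 0 calls, but 1 among probes detected on all 8 arrays, 1 with no detection filter and 4 without both Δ122p53 arrays, and 0 to 4 with 1 array left out (4 without either Δ122p53 array). Against WT, Δ122p53 gave 3 calls, but 1 on control arrays only and 1 on amsacrine arrays only (both chosen after seeing the data), and 0 to 4 with 1 array left out. Against p53-null cells it gave 1 call, but 0 on control arrays only and 0 on amsacrine arrays only, and 0 to 1 with 1 array left out, where Blm itself did not pass. For p53-null minus WT the count was 0 throughout the arrays left out. The 10 calls of the wider list against WT were 5 in the authors' table, 5 among probes detected on all 8 arrays, 6 with no detection filter, 0 on control arrays only, 3 on amsacrine arrays only and 0 to 8 with 1 array left out. Among named genes, 266 values kept their side of the threshold, 26 no longer passed and 3 newly passed. The 26 all belonged to the calls of Blm, Ercc5 and Mgmt, and most of the 266 had not passed to begin with. Other Δ122p53 minus WT values did turn direction. On control arrays only they turned to 0.23 for Xpc, 0.10 for Ercc2 and −0.25 for Xrcc6. On amsacrine arrays only they turned to −0.77 for Trp53bp1 and 0.20 for Brca1. Ercc5 did not pass in the authors' table (adjusted p = 0.0716, limma) or with no detection filter (0.0926). Without 1 of the p53-null controls the group-means model has no residual degrees of freedom, so only its medians were recomputed. No paired analysis was possible because the groups share only replicate number 1. Some alternatives hold fewer arrays or probes than the main fit and others do not, and the cause of these changes was not tested.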
